A study of Mus musculus with 2 samples.

Results

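Cxcl2, Cxcl10 and Cxcl16 are 3 CXC chemokine genes, chosen by name, of 17683 genes listed in 2 single-cell RNA libraries of mouse retina. The libraries held CD45-positive cells sorted from B6 mice with microbead-induced glaucoma, in which injected beads raise the pressure in the eye. The Igfbpl1 library came from 10 pooled mice treated with Igfbpl1, and the PBS library from 10 pooled mice given PBS, all aged 8 to 10 months. Both groups carried the glaucoma model, and an eye without beads was not analysed here. The mice of a group were pooled into 1 library, so no difference between the groups has a replicate check, and no p-value is given. Intervals are exact 95% intervals for counting error only. Those of levels and ratios count each captured RNA molecule as independent, so they are too narrow where few cells hold most of them.

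CXC chemokines are small secreted or membrane-anchored proteins that attract leukocytes. Cxcl2 binds the receptor Cxcr2, which neutrophils carry, and its gene is switched on quickly by inflammatory signals. Cxcl10 is made in response to interferons and binds Cxcr3 on activated T cells and natural killer (NK) cells. Cxcl16 is made as a membrane protein on macrophages and dendritic cells, is shed by the proteases Adam10 and Adam17, and binds Cxcr6 on T cells.

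In the mm10 build with GENCODE annotation, Cxcl2 lies on chr5:90903871-90905938 on the plus strand and Cxcl10 on chr5:92346638-92348889 on the minus strand. Cxcl16 lies on chr11:70453983-70459984 on the minus strand. RefSeq promoter sequences on GRCm38.p6 were matched for 2 of the 3 genes, and they are shown because the results compare these genes, cell by cell, with interferon and NF-kB genes. The Cxcl2 window is chr5:90903649-90903870 (plus strand) and the Cxcl10 window chr5:92348890-92349139 (minus strand), each given 5′ to 3′ in the direction of the gene, with motif matches in capitals. The Cxcl2 window is shown as its first 222 of 250 bases, because the rest, up to the RefSeq start, lies inside the GENCODE gene:
Cxcl2: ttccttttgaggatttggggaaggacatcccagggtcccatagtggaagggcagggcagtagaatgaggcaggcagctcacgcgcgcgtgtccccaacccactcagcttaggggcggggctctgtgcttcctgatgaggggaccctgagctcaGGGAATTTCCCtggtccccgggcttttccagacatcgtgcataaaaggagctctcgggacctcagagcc
Cxcl10: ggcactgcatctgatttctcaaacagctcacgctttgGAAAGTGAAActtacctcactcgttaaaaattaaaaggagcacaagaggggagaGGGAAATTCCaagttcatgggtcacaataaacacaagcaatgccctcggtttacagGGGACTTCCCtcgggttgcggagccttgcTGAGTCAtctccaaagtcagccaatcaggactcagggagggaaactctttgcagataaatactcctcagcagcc
The motifs searched on both strands were the NF-kB consensus, a core of the interferon-stimulated response element (ISRE, searched as a pair of GAAA words with 2 unspecified bases between them), TGANTCA (AP-1) and TTCNNNGAA (the interferon gamma-activated site, GAS). Positions are counted back from the RefSeq start, at 0, and not from the end of the printed bases. The Cxcl2 window held an NF-kB match at -97 to -88, overlapped by a match on the other strand at -96 to -87, and none of the other motifs. The Cxcl10 window held an ISRE match at -213 to -204, NF-kB matches at -159 to -150 and at -103 to -94, and an AP-1 match at -74 to -68, with no overlap. Of 32851 RefSeq windows of 250 bases, 3.90% held the NF-kB consensus, 2.98% the ISRE core, 6.75% AP-1 and 7.02% GAS. A match describes these letters only.

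The Igfbpl1 library had 3330 cells and 9463631 UMIs (unique molecular identifiers, each counting 1 captured RNA molecule), with a median of 2355.5 UMIs per cell. The PBS library had 1055 cells and 3795008 UMIs, with a median of 3433 per cell. The libraries shared 0 cell barcodes. Cell classes were set per cell from marker UMIs that exclude the 3 chemokines. The Igfbpl1 library had 1509 microglia-like cells (45.3%) and 484 monocyte/macrophage-like cells (14.5%), and the PBS library 766 (72.6%) and 48 (4.55%). Dendritic-like cells numbered 150 and 2, and migratory dendritic-like cells, marked by Ccr7 and Fscn1, 107 and 0. Although the sort was for CD45, 129 cells in the Igfbpl1 library and 66 in the PBS library carried neuron markers (photoreceptor-, bipolar- or amacrine/ganglion-like). These neuron-like cells, with median depths of 1904 and 2229 UMIs, are used as a guide to the background of free RNA. A cell that also carried many immune markers was called mixed and left out of them, so this background may be too low. Levels are given as CPM, the UMIs of a gene scaled to 1000000 UMIs of its class.

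Cxcl2 was held mainly by monocyte/macrophage-like cells in both libraries. That class held 65.8% of Cxcl2 UMIs in the Igfbpl1 library (1698 of 2581; 63.9 to 67.6%) and 72.5% in the PBS library (446 of 615; 68.8 to 76.0%). It held only 20.3% and 5.99% of all UMIs. Its Cxcl2 level was 882 CPM in the Igfbpl1 library (841 to 925) and 1962 CPM in the PBS library (1784 to 2153). Microglia-like cells stood at 89.9 CPM (80.2 to 100) and 50.4 CPM (42.5 to 59.4). Within a library, Cxcl2 was thus 9.81-fold higher in monocyte/macrophage-like than in microglia-like cells in the Igfbpl1 library (8.70 to 11.1) and 38.9-fold higher in the PBS library (32.2 to 47.4). Of the genes measured in those contrasts, 9.79% in the Igfbpl1 library and 8.40% in the PBS library were at least 2-fold higher, and 30.3% and 16.2% were lower. When classes were set again after thinning each cell to 1000 UMIs, the class held 36.6% and 38.1% of Cxcl2 UMIs. Dendritic-like cells of the Igfbpl1 library stood at 145 CPM (119 to 175), T-like cells at 55.5 CPM and migratory dendritic-like cells at 23.1 CPM. Of the Igfbpl1 neuron-like cells, 2 of 129 had a Cxcl2 UMI (1.55%), and of the PBS ones 0 of 66, which allows a share of up to 5.44%.

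**Figure D1:**
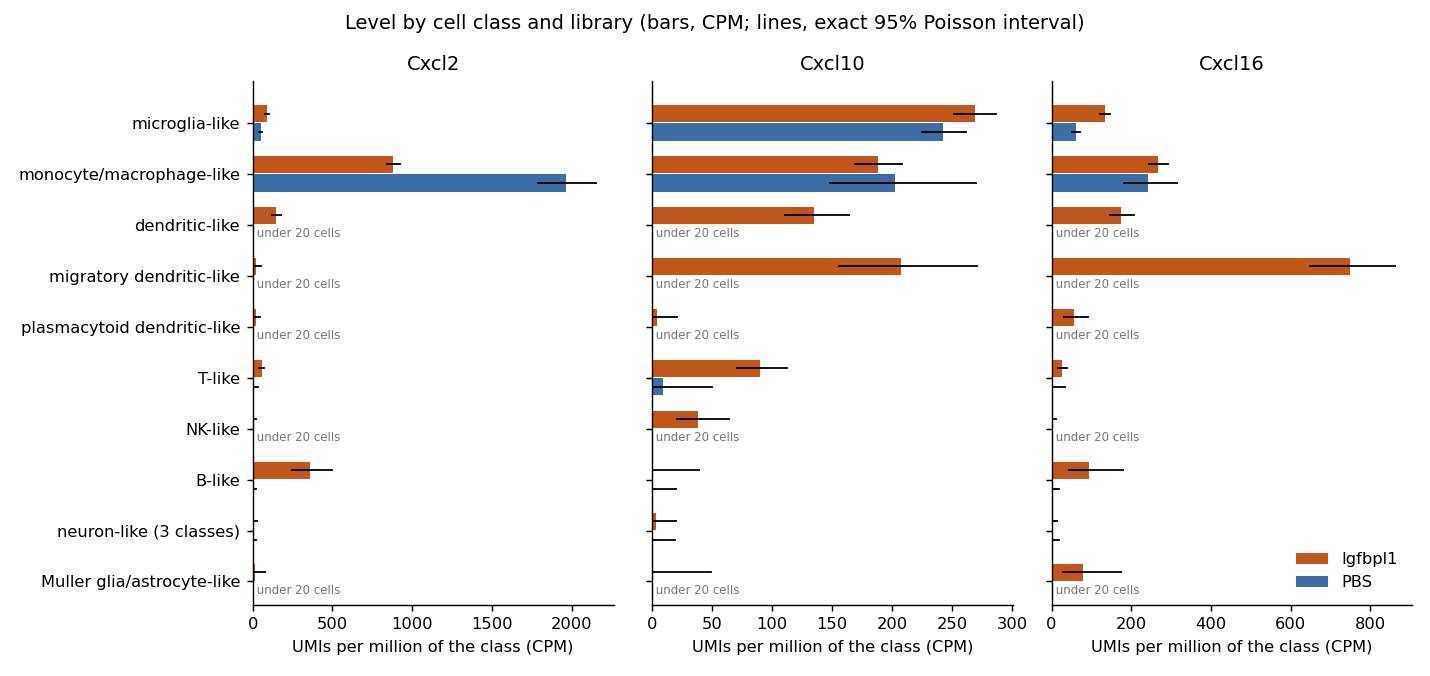
Level of each chemokine (x axis, CPM of the class) by cell class (y axis) in the Igfbpl1 and PBS libraries; bars are class sums, and lines are exact Poisson intervals. Classes under 20 cells are left blank. Of those drawn, Cxcl2 is highest in monocyte/macrophage-like cells, at 882 CPM in the Igfbpl1 library and 1962 CPM in the PBS library, and Cxcl16 in migratory dendritic-like cells, at 750 CPM in the Igfbpl1 library.

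**Figure D2:**
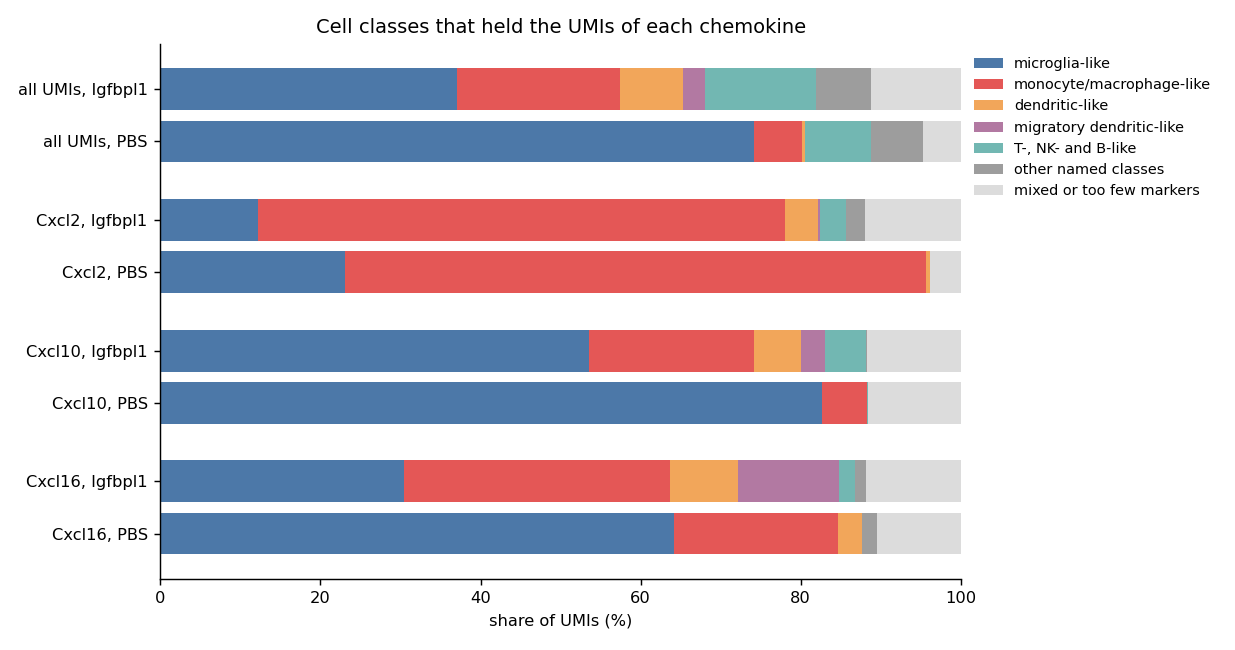
Share of UMIs (x axis, percent) held by each group of cell classes, for all UMIs and for each chemokine, by library. Monocyte/macrophage-like cells hold 65.8% of Cxcl2 UMIs in the Igfbpl1 library and 72.5% in the PBS library, whereas microglia-like cells hold 53.6% and 82.7% of Cxcl10 UMIs.

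Cxcl2 was concentrated in few cells. It was detected in 152 of 484 monocyte/macrophage-like cells of the Igfbpl1 library (31.4%) and in 15 of 48 of the PBS library (31.2%), with a median of 6 UMIs per positive cell in both. The highest cells had 88 UMIs in the Igfbpl1 library and 152 in the PBS library. The 5 highest cells held 19.5% of the class's Cxcl2 UMIs in the Igfbpl1 library and 88.8% in the PBS library. Over whole libraries, 50% of Cxcl2 UMIs lay in 40 of 3330 Igfbpl1 cells and in 3 of 1055 PBS cells. The share of positive cells had overlapping intervals (27.3 to 35.7% and 18.7 to 46.3%), while those of the summed level lay apart. The intervals of the summed level take each UMI as independent and are too narrow for UMIs held by so few cells. That they lay apart therefore does not settle a difference between the libraries.

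The monocyte/macrophage-like classes of the libraries did not hold like cells. Pf4, a CXC ligand (platelet factor 4) also made by tissue macrophages, had 25 UMIs in 18 of 484 cells of the Igfbpl1 library and 575 UMIs (2530 CPM) in 26 of 48 cells of the PBS library. Summed markers of tissue macrophages (Mrc1, Cd163, Lyve1, Folr2 and Ms4a7) came to 337 CPM in the Igfbpl1 library, where Cd163 and Lyve1 were at 0, and 2011 CPM in the PBS library. Summed markers of monocytes (9 genes, Ly6c2, Ccr2 and Plac8 among them) came to 3041 and 1874 CPM. Cells in which the monocyte markers led numbered 451 in the Igfbpl1 library, at 857 CPM of Cxcl2 with 143 positive cells, and 12 in the PBS library, at 790 CPM with 1 positive cell. Cells in which the tissue macrophage markers led numbered 10 in the Igfbpl1 library, with 1 Cxcl2 UMI, and 28 in the PBS library, at 2915 CPM with 12 positive cells. The marker sets tied in 23 Igfbpl1 cells, at 1770 CPM of Cxcl2 with 8 positive cells. They also tied in 8 PBS cells, at 184 CPM with 2 positive cells. Of the Cxcl2-positive cells, 10 of 152 also had Pf4 UMIs in the Igfbpl1 library, and 13 of 15 did in the PBS library, where they held 83.4% of the class's Cxcl2 UMIs. Of the 484 Igfbpl1 cells of the class, 194 lay in a Leiden cluster named dendritic-like, with Cxcl2 at 248 CPM, and 262 in the macrophage-like one, at 1343 CPM. In the PBS library 0 and 39 of the 48 cells did, the 39 at 2352 CPM. The split by markers was made after the Pf4 values were seen. Over all cells of the class the Igfbpl1 over PBS ratio of Cxcl2 was 0.450 (0.405 to 0.500), while 26.1% of the 5524 genes measured in the class were 2-fold lower and 7.71% were 2-fold higher. Without the 5 highest cells of each library the ratio was 2.88 (2.17 to 3.91). That cut took 5 of 15 positive PBS cells and 5 of 152 positive Igfbpl1 cells, so it is unequal and does not settle the direction. The PBS level rested on few cells.

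Microglia-like cells held 12.2% of Cxcl2 UMIs in the Igfbpl1 library and 23.1% in the PBS library. Only 4 Igfbpl1 cells were neutrophil-like, and 2 of them had Cxcl2, with 45 and 7 UMIs, which sum to 9888 CPM of so few cells. Igfbpl1 B-like cells had 34 Cxcl2 UMIs in 3 of 52 cells, all 3 in the Leiden cluster of macrophage-like cells, against 0 UMIs in 79 PBS B-like cells. In microglia-like cells Cxcl2 was detected in 85 of 1509 cells of the Igfbpl1 library (5.63%; 4.52 to 6.92%) and in 9 of 766 cells of the PBS library (1.17%; 0.539 to 2.22%). After every cell was thinned to 1000 UMIs, the shares were 3.58% and 0.783%, with the larger share in the shallower Igfbpl1 cells. The PBS share is below the 5.44% that 0 of 66 PBS neuron-like cells allow, whereas the PBS level of 50.4 CPM lies above their upper bound of 18.9 CPM. The summed level was 1.78-fold that of PBS (1.46 to 2.19). In Igfbpl1 and PBS cells, Cxcl2 was at 21.8 and 13.8 CPM in the Leiden cluster led by C1qa (531 and 619 cells), and at 103 and 0 CPM in that led by Ccl12 (598 and 56 cells). In the cluster led by Apoe (340 and 78 cells) the direction was the opposite, at 140 CPM in Igfbpl1 and 272 CPM in PBS cells, the PBS value from 3 positive cells. In the PBS library a single cell held 88 of the 142 UMIs, and without the 5 highest cells of each library the ratio was 26.8 (12.8 to 67.3). That cut took 5 of 9 positive PBS cells and 5 of 85 positive Igfbpl1 cells, so it is unequal. Among microglia-like cells with Xist UMIs and no Y-linked UMIs (Xist-only) the ratio was 8.63 (4.26 to 20.4, resting on 8 PBS UMIs), and among those with Y-linked UMIs and no Xist (Y-only) it was 1.08 (0.792 to 1.46). Xist-only microglia-like cells numbered 525 in the Igfbpl1 library and 191 in the PBS library, and Y-only ones 409 and 359. The mix thus differed between the libraries, and its part in the ratios was not tested. The sources used here do not say which sex the mice were.

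**Figure D3:**
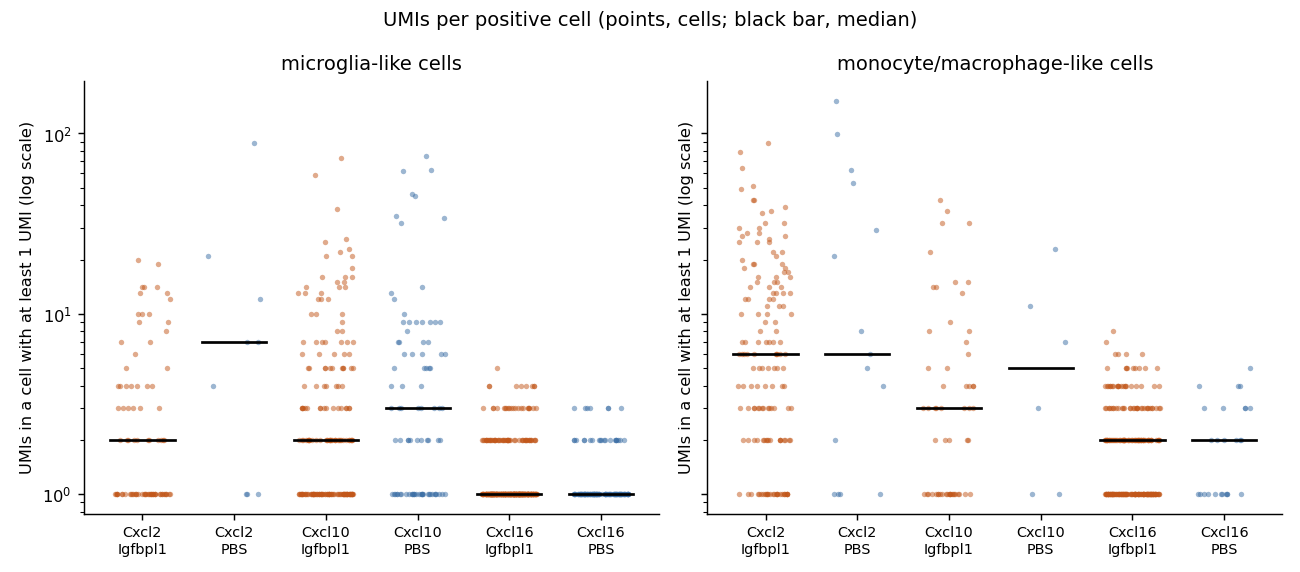
UMIs per cell (y axis, log scale) in cells with at least 1 UMI of each chemokine, in microglia-like (left) and monocyte/macrophage-like cells (right), by library; points are cells and black bars medians. Cxcl2 reaches 88 UMIs in Igfbpl1 and 152 UMIs in PBS monocyte/macrophage-like cells, while Cxcl16 stays at or under 8 UMIs.

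Cxcl10 had its largest share of UMIs in microglia-like cells. They held 53.6% of its UMIs in the Igfbpl1 library (942 of 1757; 51.2 to 56.0%) and 82.7% in the PBS library (684 of 827; 80.0 to 85.2%), of 37.0% and 74.2% of all UMIs. The Igfbpl1 share was between 45.6% and 49.6% with stricter markers, in Xist-only cells, after thinning and with cells of 2000 or more UMIs. The microglia-like level was 269 CPM in the Igfbpl1 library (252 to 287) and 243 CPM in the PBS library (225 to 262), a ratio of 1.11 (1.00 to 1.22). Among Xist-only cells the ratio was 1.86 and among Y-only cells 1.03 (0.890 to 1.19). Cxcl10 was detected in 194 of 1509 cells (12.9%) and in 87 of 766 cells (11.4%), and after thinning in 9.15% (7.74 to 10.7%) and 6.27% (4.66 to 8.22%). Monocyte/macrophage-like cells stood at 188 CPM (169 to 208) and 202 CPM (148 to 270), with 58 and 6 positive cells. Their ratio was 0.929 (0.682 to 1.29), and 20.9 without the 5 highest cells of each library, which left 1 PBS UMI. In the Igfbpl1 library, migratory dendritic-like cells stood at 208 CPM (156 to 271) and dendritic-like cells at 135 CPM (110 to 164). The interval of migratory dendritic-like cells overlapped those of both monocyte/macrophage-like and microglia-like cells, so its place in the order is not resolved at this depth. The interval of microglia-like cells lay above that of monocyte/macrophage-like cells in the Igfbpl1 library and overlapped it in the PBS library. By share of positive Igfbpl1 cells after thinning, these classes overlapped, at 9.15% and 7.23% (5.09 to 9.91%). T-like cells were at 89.7 CPM in the Igfbpl1 library, against 1 UMI in the PBS library. Plasmacytoid dendritic-like cells had 1 UMI and B-like cells 0 in the Igfbpl1 library, and 1 of 129 neuron-like cells was positive. By Leiden cluster, which keeps cells called mixed, a bipolar-like cluster had 23 UMIs in 2 of 48 Igfbpl1 cells. The photoreceptor-like cluster had 19 UMIs in 1 of 41 PBS cells. Each other cluster named for neurons held at most 1 Cxcl10 UMI in a library.

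The near-equal sum over microglia-like cells joined groups that differed. In the Leiden cluster led by C1qa, C1qc and Cx3cr1, Cxcl10 was at 148 CPM in 531 Igfbpl1 cells (126 to 173) and 127 CPM in 619 PBS cells (112 to 143). In the cluster led by Ccl12 and Ccl2 it was at 398 CPM in 598 Igfbpl1 cells (365 to 433) and 1170 CPM in 56 PBS cells (1033 to 1319), with 14.2% and 14.3% of cells positive. In the cluster led by Apoe it was at 249 CPM in 340 Igfbpl1 cells (219 to 283) and 380 CPM in 78 PBS cells (320 to 449), with 17.1% and 17.9% positive. The PBS value of the Ccl12 cluster came from 8 positive cells.

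Among microglia-like cells, Cxcl10 was detected most often in those with most type I interferon gene UMIs. Cells were grouped by their UMIs of 17 interferon genes (Isg15, Ifit1, Irf7 and others, without the chemokine Ccl12) after thinning to 1000 UMIs. In the Igfbpl1 library Cxcl10 was detected in 7.30% of 712 cells with 0 interferon UMIs, 8.26% of 557 cells with 1 to 2, 17 of 155 cells with 3 to 5 and 27.1% of 85 cells with 6 or more. In the PBS library Cxcl10 was detected in 23 of 460 cells, 14 of 250 cells, 8.11% of 37 cells and 42.1% of 19 cells. Within each library, the intervals of these shares overlapped among the groups below 6 interferon UMIs. The thinned level in cells with 6 or more was 1518 CPM in the Igfbpl1 library (1267 to 1803) and 4368 CPM in the PBS library (3479 to 5415), against 142 and 111 CPM in cells with 0. Cxcl2 was detected in 2.35% of Igfbpl1 and 0% of PBS cells of the highest group, and in 3.37% and 0.870% of the lowest. Cxcl16 was detected in 13 of 85 Igfbpl1 and 2 of 19 PBS cells of the highest group, and in 70 of 712 and 23 of 460 cells of the lowest. In Igfbpl1 monocyte/macrophage-like cells, Cxcl10 was detected in 21.4% of 42 cells with 6 or more interferon UMIs and in 6.42% of 109 cells with 0. Cells of the same library are not replicates, and these gradients are a description.

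**Figure D4:**
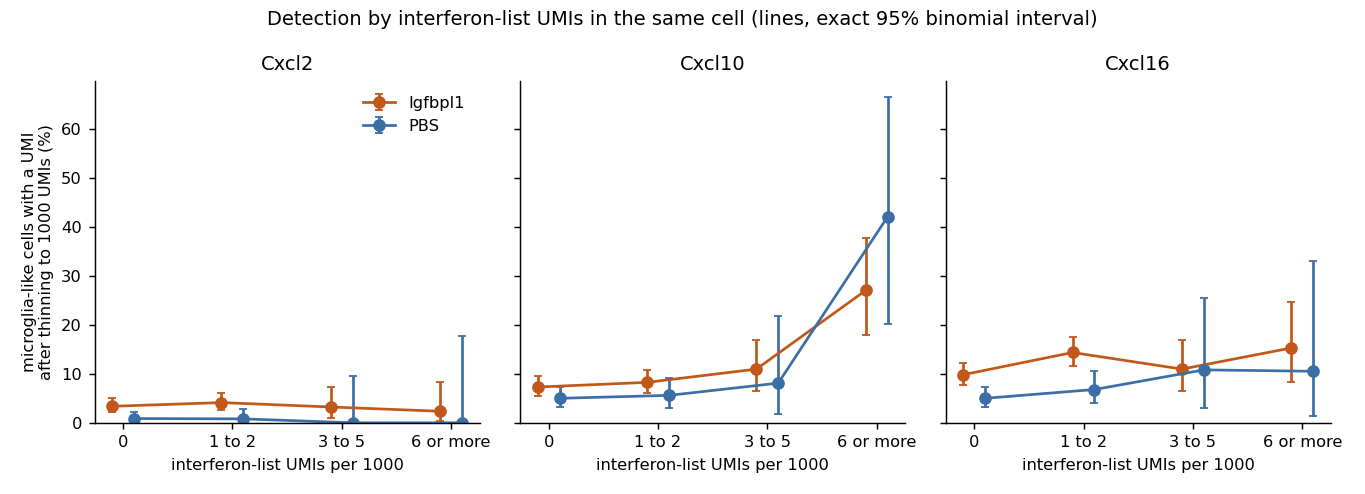
Microglia-like cells with a UMI of each chemokine (y axis, percent, after thinning to 1000 UMIs) by the number of type I interferon gene UMIs in the same thinned cell (x axis); lines are exact binomial intervals. The Cxcl10 share is 27.1% in the Igfbpl1 library and 42.1% in the PBS library at 6 or more interferon UMIs, and at 0 it covers 52 of 712 Igfbpl1 and 23 of 460 PBS cells.

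Cells were also grouped by their UMIs of 24 inflammatory and NF-kB genes. In Igfbpl1 microglia-like cells, Cxcl10 was detected in 2.93% of 307 cells with 0 to 9 such UMIs and in 16.7% of 180 cells with 40 or more. The shares were 1.30% and 5.56% for Cxcl2, and 6.84% and 15.6% for Cxcl16. In the PBS library the corresponding shares, over 334 and 17 cells, were 3.29% and 35.3% for Cxcl10, with 2 and 1 positive cells for Cxcl2, and 11 and 2 for Cxcl16. For Igfbpl1 monocyte/macrophage-like cells, the Cxcl2 share was 13.9% of 281 cells with 0 to 9 such UMIs. It was 28.0% of 161 cells with 10 to 19 and 30.6% of 36 cells with 20 to 39. Of those with 40 or more, 4 of 6 had Cxcl2. In PBS cells of that class, Cxcl2 was found in 2 of 25 with 0 to 9 and 3 of 4 with 40 or more. Cxcl10 was found there in 1 of 25 and 0 of 4. The highest groups hold few cells.

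Cxcl16 was detected in 894 Igfbpl1 and 186 PBS cells, against 360 and 99 cells for Cxcl10 and 320 and 28 for Cxcl2. Its positive cells had a median of 1 UMI in both libraries and at most 8. In the Igfbpl1 library it was highest in migratory dendritic-like cells, at 750 CPM (648 to 863) with 78 of 107 cells positive (72.9%; 63.4 to 81.0%). These cells held 12.6% of Cxcl16 UMIs and 2.75% of all UMIs. Monocyte/macrophage-like cells followed at 268 CPM in the Igfbpl1 library (245 to 292) and 242 CPM in the PBS library (182 to 315), with 52.5% and 54.2% of cells positive. Dendritic-like cells were at 175 CPM (147 to 208), microglia-like cells at 135 CPM (123 to 147) and plasmacytoid dendritic-like cells at 55.7 CPM (31.2 to 91.9) in the Igfbpl1 library. In this order neighbouring intervals of the Igfbpl1 library lay apart, except that those of dendritic-like and microglia-like cells touched. Migratory dendritic-like over microglia-like cells gave 5.57-fold (4.69 to 6.59), where 15.8% of 5636 genes were 2-fold higher and 34.6% were 2-fold lower. NK-like cells (163) and Igfbpl1 neuron-like cells (129) had 0 Cxcl16 UMIs, which allows shares of up to 2.24% and 2.82%, and PBS neuron-like cells had 0 of 66. Müller glia/astrocyte-like cells had 6 UMIs in 6 of 34 cells of the Igfbpl1 library and 5 UMIs in 5 of 10 cells of the PBS library.

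In microglia-like cells Cxcl16 was higher in the Igfbpl1 library, at 135 CPM against 61.1 CPM in the PBS library (52.3 to 70.9), a ratio of 2.21 (1.85 to 2.64). Of 6206 genes measured there, 1.37% were 2-fold higher and 0.790% were 2-fold lower, and the interval of Cxcl16 includes values under 2. Scaled by the median gene ratio of the class, the ratio was 2.46 (2.06 to 2.94). Cxcl16 was detected in 348 of 1509 Igfbpl1 cells (23.1%) and in 138 of 766 PBS cells, and after thinning in 11.9% (10.3 to 13.7%) and 6.01% (4.43 to 7.93%). The level was higher in the Igfbpl1 library in each of the 3 large clusters. In Igfbpl1 and PBS cells it was 104 and 48.6 CPM in the C1qa cluster, 126 and 66.0 CPM in the Ccl12 cluster, and 180 and 127 CPM in the Apoe cluster. The intervals of the C1qa cluster lay apart, and those of the Ccl12 and Apoe clusters overlapped slightly. Among Xist-only cells it was 144 CPM in Igfbpl1 and 48.4 CPM in PBS cells, and among Y-only cells 137 and 61.2 CPM. Heat shock genes summed to 23226 CPM in Igfbpl1 and 13143 CPM in PBS microglia-like cells, and immediate early genes to 25198 and 16368 CPM. Their part in the ratio was not tested, and with both lists, mitochondrial and ribosomal genes left out of the totals the ratio was 2.31 (1.94 to 2.77).

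The level over all cells joined the class levels with the mix of classes. Over all cells, Cxcl16 was at 164 CPM in the Igfbpl1 library and 70.6 CPM in the PBS library, and the Igfbpl1 class levels weighted by the PBS mix of classes gave 131 CPM. Cxcl2 was at 273 and 162 CPM, and at 154 CPM with the PBS mix. Cxcl10 was at 186 and 218 CPM, and at 223 CPM with the PBS mix. With the PBS mix, the Igfbpl1 level of Cxcl2 was no longer above that of PBS cells, while that of Cxcl16 was. The PBS level of Cxcl2 had 50% of its UMIs in 3 cells. The monocyte/macrophage-like classes that were reweighted did not hold like cells, and the part of the mix was not tested.

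The chemokines were not held by separate cells. Of 152 Cxcl2-positive monocyte/macrophage-like cells of the Igfbpl1 library, 101 also had Cxcl16 (66.4%; 58.3 to 73.9%), against 153 of 332 cells without Cxcl2 (46.1%; 40.6 to 51.6%). The positive cells were deeper, with a median of 4209 against 3425.5 UMIs, and the part of depth was not tested. In the PBS library the Cxcl16 shares were alike, at 8 of 15 Cxcl2-positive cells (53.3%; 26.6 to 78.7%) and 18 of 33 others (54.5%; 36.4 to 71.9%). Cxcl10 was found in 15.8% of the Cxcl2-positive and 10.2% of the other Igfbpl1 cells of the class, whose intervals overlapped. In the PBS library it was found in 5 of 15 and 1 of 33 cells. In Igfbpl1 microglia-like cells, 15 of 85 Cxcl2-positive cells (17.6%) and 179 of 1424 others (12.6%) had Cxcl10, and in PBS ones 4 of 9 and 83 of 757.

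Of the receptors, Cxcr2 was close to absent, with 2 UMIs in the Igfbpl1 library and 4 in the PBS library. Cxcr3, the receptor of Cxcl10, was at 68.5 CPM in T-like cells of the Igfbpl1 library (52.0 to 88.5; 49 of 300 cells) and 45.0 CPM in those of the PBS library (14.6 to 105; 4 of 31 cells). In the Igfbpl1 library it was also at 46.1 CPM in NK-like and 44.6 CPM in plasmacytoid dendritic-like cells, against 1.43 CPM in microglia-like cells. Cxcr6, the receptor of Cxcl16, had 256 of its 297 Igfbpl1 UMIs in T-like cells (302 CPM, 266 to 342; 120 of 300 cells positive), and 7 of 8 PBS UMIs (63.0 CPM, 25.3 to 130; 4 of 31 cells). Within Igfbpl1 T-like cells, those with UMIs of the gamma-delta T cell genes Trdc, Trdv4 or Il17a stood at 681 CPM (64 of 87 cells positive) and the rest at 150 CPM (56 of 213), a split chosen after the values were seen. None of the 31 PBS T-like cells had those UMIs. Cxcr4, the receptor of Cxcl12, was at 179 CPM in Igfbpl1 and 185 CPM in PBS monocyte/macrophage-like cells. Cxcr5 had 36 and 27 UMIs and Ackr1 16 and 10, and Ackr3, listed for the Igfbpl1 library, had 11.

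**Figure D5:**
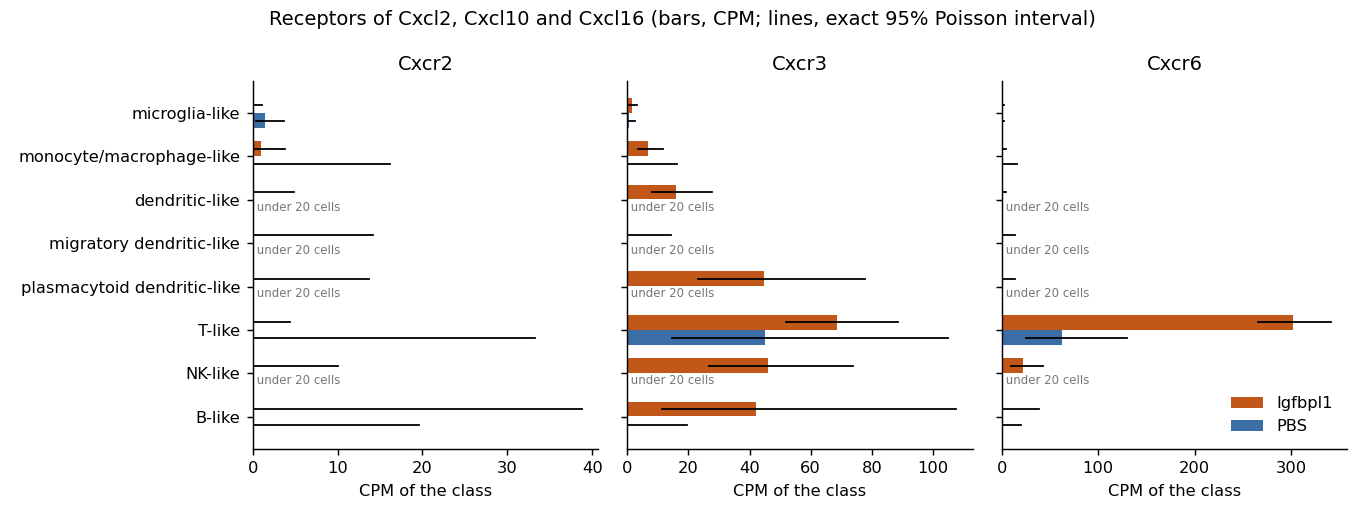
Level (x axis, CPM of the class) of the receptors Cxcr2, Cxcr3 and Cxcr6 by cell class (y axis) and library, with exact Poisson intervals. Cxcr6 is highest in T-like cells, at 302 CPM in the Igfbpl1 library and 63.0 CPM in the PBS library, and Cxcr2 has 2 UMIs in the Igfbpl1 library and 4 in the PBS library.

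Of the enzymes that process these ligands, Adam10 was at 240 CPM in Igfbpl1 and 286 CPM in PBS microglia-like cells and Adam17 at 104 and 124 CPM. The protease Furin was at 28.0 and 30.5 CPM. None of these 3 measured enzymes was past 2-fold in microglia-like cells, beside 1.37% of all measured genes higher and 0.790% lower. In monocyte/macrophage-like cells, 1 of 4 measured enzymes was 2-fold higher and 1 was 2-fold lower, beside 7.71% higher and 26.1% lower over all genes. Adam10 was at 64.9 CPM in Igfbpl1 and 176 CPM in PBS cells of that class, and Dpp4, which trims Cxcl10, at 56.6 CPM and 2 UMIs. Dpp4 was at 196 CPM in Igfbpl1 migratory dendritic-like cells and had 1 UMI in Igfbpl1 and 0 in PBS microglia-like cells. Among the other CXC ligands, Cxcl9 shares the receptor Cxcr3 with Cxcl10. In the Igfbpl1 library dendritic-like cells stood at 402 CPM of Cxcl9 (358 to 450) and microglia-like cells had 7 UMIs, and in the PBS library microglia-like cells held all 14 UMIs. Cxcl12 had 75 of its 81 Igfbpl1 UMIs in 7 endothelial/pericyte-like cells. Cxcl13 was at 15.4 CPM in Igfbpl1 and 5.33 CPM in PBS microglia-like cells, and Cxcl14 at 23.1 and 12.1 CPM. Cxcl1, another Cxcr2 ligand, had 4 UMIs in the Igfbpl1 library and 18 in the PBS library, and Cxcl17 had 5 and 4 UMIs in microglia-like cells.

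In microglia-like cells, 3 of 21 measured inflammatory and NF-kB genes were at least 2-fold higher in the Igfbpl1 library and 0 lower, beside 1.37% higher and 0.790% lower over all genes. Their median log2 ratio, with 10 CPM added to both libraries as in all list medians, was 0.43, against -0.13 over all genes. They were Il1b (548 CPM in Igfbpl1 against 100 CPM in PBS cells), Ccl2 (1747 against 432 CPM) and Ccl7 (67.9 against 18.1 CPM), a cytokine and chemokines that attract monocytes. Of 15 measured type I interferon genes, 7 were at least 2-fold higher and 0 lower (median 0.83), among them Isg15 (112 against 50.8 CPM), Oasl2 (56.8 against 20.9 CPM) and Ccl12 (3470 against 1149 CPM). Of 3 measured interferon gamma genes, 0 were past 2-fold (median 0.32). The Cxcl10 ratio of 1.11 was lower than that of each of these 15 genes. In monocyte/macrophage-like cells the inflammatory list had 2 of 23 higher and 6 lower, the interferon list 10 of 16 higher and 1 lower, and the interferon gamma list 3 of 5 higher and 0 lower, beside 7.71% higher and 26.1% lower over all genes. The inflammatory list was thus close to the share over all genes. The medians were -0.66, 1.04 and 1.20, against -0.35 over all genes.

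Across 17 sums of a class in a library, the genes whose log2 level was most like that of Cxcl2 were Ccr1 (Pearson r = 0.94), Tgm2, Thbs1, Tgfbi and Lyz2. Thbs1 is a marker used for the class that holds Cxcl2. Those most like Cxcl10 were Ifih1 (r = 0.93), a sensor of viral RNA, Gm20703, Fam129a, Slc25a13 and Phf11d. Those most like Cxcl16 were Ptafr (r = 0.97), Batf3, Tmem176a, Cd80 and Il1b. The sums of a class share libraries and depth, and the correlations over 12411 genes are given as a description.

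Some reads could belong to a neighbouring or similar gene. Cxcl16 overlaps Zmynd15 on the opposite strand by 552 bases, at the 5′ ends of both genes. Zmynd15 was at 569 CPM in migratory dendritic-like cells, and 44 of these 107 cells had UMIs of both genes. Cxcl10 lies within Art3, which is on the opposite strand and had 67 UMIs in the Igfbpl1 library and 66 in the PBS library. Of the 1859 31-base words of Cxcl2 transcripts, 80 also occur in Cxcl3 and 0 in Cxcl1. The sources used here do not say whether the counting used strand, and its part in these values was not tested.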

How the data were processed

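CD45-positive retinal cells were sequenced with a 10x 3′ kit, 1 library per group. The authors deposited UMI counts per gene and cell, not normalised. Cell Ranger 3.1 and mm10 are named in the submitters' processing notes, and the sources used here do not state the filter on cells. The counts were handled with Python 3.11.15, pandas 2.3.3, numpy 2.4.6 and scipy 1.17.1. The 3 members and the gene lists were chosen with earlier results of these data known, and the text could name any member or list gene and the 5 genes most like each member. The class rule, the split of monocyte/macrophage-like cells and that of T-like cells were set after values were seen.

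Monocyte/macrophage and all dendritic classes were first joined as a myeloid lineage, T and NK as another, and each other class stood alone. A cell took the lineage whose markers it had most of, if it had at least 2 of them and 3 UMIs. It also needed 1.5 times as many as for the next lineage, and otherwise was called mixed or too few markers. Within the myeloid and the T and NK lineages, the class with most markers was taken, with no minimum or margin. Markers shared between classes, Cx3cr1 and Siglech among them, were left out of this rule after the data were seen. Clusters (scanpy 1.11.5, igraph 0.11.9, Leiden, resolution 0.8) excluded the 3 members. Scrublet called 62 Igfbpl1 cells (1.86%) and 6 PBS cells (0.569%) doublets, which were kept. Intervals are exact Poisson for CPM, Clopper-Pearson for shares and conditional binomial for ratios. For some shares each cell was thinned to 1000 UMIs. For a share of 0, the upper end of its interval is given. Genes at a mean of 20 CPM and 20 UMIs were measured. The intervals and the class rule were checked on simulated data. Alternatives changed the class rule, cells, scaling and depth.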

Additional observations from a re-analysis of the deposited data

Results flagged for a closer look

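The Igfbpl1 over PBS ratio of Cxcl2 lay on opposite sides of 1 in the largest myeloid classes, at 1.78 in microglia-like cells and 0.450 in monocyte/macrophage-like cells. The difference between these ratios was not tested, since each group had 1 library. Within monocyte/macrophage-like cells the ratio was 0.312 (0.267 to 0.365) among Xist-only cells (268 Igfbpl1 and 17 PBS cells) and 2.07 (1.52 to 2.83) among Y-only cells (15 Igfbpl1 and 22 PBS cells), and that difference was not tested either. The Xist-only PBS level, 2525 CPM, came from 7 positive cells, and the Y-only PBS level, 764 CPM, from 4.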

How the results depend on the processing

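No paired analysis was possible because each group is 1 library of pooled mice. Of the values recomputed under alternatives, 82 moved by less than counting error, 57 moved by more and 2 reversed. The cause was not tested. A ratio was counted as reversed only where its main interval excluded 1. The monocyte/macrophage-like ratios of Cxcl10 and Cxcl16, whose main intervals included 1, also changed side of 1 under some alternatives and are not counted as reversed. Some alternatives were chosen after seeing the data: leaving out the 5 highest cells, thinning with full-depth classes, the single cluster and all those for monocyte/macrophage-like ratios.

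Share of Cxcl2 UMIs in monocyte/macrophage-like cells: Leiden clusters gave 75.2% in Igfbpl1 and 76.6% in PBS, stricter markers 53.2% and 68.1%, thinning 36.6% and 38.1%, thinning with full-depth classes 56.9% and 68.1%, Xist-only cells 68.0% and 95.7%, and Y-only cells 50.9% and 39.5%. The Igfbpl1 share was 70.2% with cells of 2000 or more UMIs and 68.2% without doublets. Share of Cxcl10 UMIs in microglia-like cells: clusters gave 63.3% in Igfbpl1 and 91.9% in PBS, stricter markers 45.6% and 74.2%, thinning 48.0% and 68.7%, and Xist-only cells 46.9% and 99.1%. The Igfbpl1 share was 49.6% with cells of 2000 or more UMIs, 61.1% thinned with full-depth classes and 88.6% in Y-only cells. Share of Cxcl16 UMIs in Igfbpl1 microglia-like cells: clusters gave 34.7%, stricter markers 25.6%, 2000 or more UMIs 26.3%, thinning with full-depth classes 39.7%, Xist-only cells 21.7% and Y-only cells 80.9%. The PBS share was 53.8% after thinning.

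The microglia-like Igfbpl1 over PBS ratio of Cxcl2 was 2.20 with 2000 or more UMIs, 5.57 thinned, 8.63 in Xist-only cells, 1.08 in Y-only cells and 26.8 without the 5 highest cells. That of Cxcl10 was 1.86 in Xist-only cells, 1.23 with median scaling and 1.47 without the 5 highest cells, and that of Cxcl16 was 2.98 in Xist-only cells. The monocyte/macrophage-like ratio of Cxcl2 was 0.674 by clusters, 0.335 with stricter markers, 0.541 thinned, 0.509 thinned with full-depth classes, 0.312 in Xist-only cells, 0.605 with median scaling, 0.528 without stress, mitochondrial and ribosomal genes and 0.571 in the single cluster. It reversed to 2.07 in Y-only cells and 2.88 without the 5 highest cells. That of Cxcl10 was 0.570 with stricter markers, 1.37 thinned, 14.1 in Xist-only cells, 3.33 in Y-only cells and 20.9 without the 5 highest cells. That of Cxcl16 was 0.689 thinned with full-depth classes, 1.99 in Xist-only cells and 0.391 in Y-only cells. The monocyte/macrophage-like ratios rest on 48 PBS cells. Leaving out the 5 highest cells took a larger part of the positive PBS cells than of the positive Igfbpl1 cells.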
